A study of Mus musculus with 6 samples.

Results

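The acyl-CoA thioesterases, encoded in the mouse by the Acot genes, were examined in liver RNA sequencing of 6 libraries. The members were the 10 gene symbols Acot1, Acot2, Acot3, Acot4, Acot6, Acot7, Acot8, Acot9, Acot12 and Acot13 of the 22183 symbols in the deposited count table. They had been picked because members of the family were lower in DOX than in PBS livers, so their difference between those groups is given below as a description; where edgeR calls among them are counted, the threshold only sorts the members and is no test of the family. All 10 were among the 14681 genes that passed the filter on low counts. The set is uneven: Acot1, Acot2 and Acot3 were at least 4-fold lower in DOX livers, whereas Acot7, Acot12 and Acot13 stood within 0.2 of no difference on the log2 scale, so the family as a whole did not fall together.

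Livers DOX 1 to 3 (labelled S2W-DOX) were set against livers PBS 1 to 3 (labelled S2W-PBS). PBS is phosphate-buffered saline; DOX often stands for doxycycline, which is used to switch engineered genes on. All 6 came from mice labelled BucheKI/KI-Hep and all had received DDC, in liver work usually a porphyrin-raising compound that injures bile ducts; the series describes butyrylcholinesterase as overexpressed in hepatocytes. The labels expand neither S2W, DOX nor DDC, and they state no age, sex, dose, duration or promoter. An action of the DOX agent and an action of the raised enzyme cannot be told apart in this design, since the only contrast changes both. Whether each library is its own animal is not stated, so p-values measure only the spread between these libraries, which may be technical. As a check of the labels, Bche (butyrylcholinesterase) was at 1938, 1867 and 1763 CPM (a gene's count as a share of its library's scaled total) in DOX 1 to 3, against 177, 177 and 206 CPM in PBS 1 to 3 (log2 fold change 3.31, SE 0.14, adjusted p = 1.65e-07 by edgeR).

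Acyl-CoA thioesterases split a fatty acyl-coenzyme A into a free fatty acid and coenzyme A, the reverse of the step by which acyl-CoA synthetases activate fatty acids. They lie in the cytosol, in mitochondria and in peroxisomes, and so set how much acyl-CoA and how much free coenzyme A each compartment holds. The type I enzymes (Acot1 to Acot6 in the mouse) share an alpha/beta-hydrolase fold and sit side by side in the genome. The type II enzymes (Acot7 to Acot13) have an unrelated hotdog fold. In rodent liver several type I genes are classic targets of PPAR-alpha, the nuclear receptor that senses fatty acids.

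The type I members lay within 121.9 kb of chromosome 12, positions 83987861 to 84109783 of GRCm38.p6 in the RefSeq annotation, all on the plus strand. Along the chromosome the order was Acot2 (from 83987861), Acot1 (84009502), Acot4 (84037254), Acot3 (84052144), Acot5 (84069077), which is not among the members, and Acot6 (84100654). Acot8 was on chromosome 2 (164792768 to 164820219, minus strand), Acot7 on chromosome 4 (152178100 to 152271855, plus strand), Acot13 and Acot12 on chromosome 13 (24817955 to 24831489, minus strand, and 91741326 to 91786148, plus strand), and Acot9 on the X chromosome (155262443 to 155297654, plus strand).

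The coding sequences of the 6 clustered genes resembled each other to differing degrees, with Acot1 and Acot2 as close copies. The longest open reading frames of the GENCODE M21 transcripts of Acot1 and Acot2 were identical at 95.2% of 1239 aligned bases, and their longest unbroken identical run was 273 bases. Acot1 was 83.9% identical to Acot3, 84.1% to Acot5, 77.3% to Acot4 and 75.9% to Acot6. With the type II genes, whose fold is unrelated, the same alignment of Acot1 gave 59.4% (Acot13) to 65.2% (Acot11). The stretch of 60 bases in which Acot2 differed most from Acot1 lay at the 5′ end of the Acot1 coding sequence. It is shown as an example of a place where reads of the copies can be told apart. Capitals mark the bases that differ from Acot1.
Acot1: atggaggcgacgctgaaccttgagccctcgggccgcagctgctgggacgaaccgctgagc
Acot2: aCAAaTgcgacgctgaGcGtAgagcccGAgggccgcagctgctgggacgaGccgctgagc
Acot3: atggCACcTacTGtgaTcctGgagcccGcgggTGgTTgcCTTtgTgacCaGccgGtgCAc
Acot4: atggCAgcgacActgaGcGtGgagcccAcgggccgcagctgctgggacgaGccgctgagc
Acot5: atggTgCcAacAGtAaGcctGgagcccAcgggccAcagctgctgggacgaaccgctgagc
Acot6: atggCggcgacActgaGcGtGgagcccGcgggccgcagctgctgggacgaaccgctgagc

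Within these 60 bases Acot2 differed from Acot1 at 10, Acot3 at 22, Acot4 at 8, Acot5 at 10 and Acot6 at 6. In Acot2 the stretch began at coding base 124, in Acot3 at base 34, and in the other 4 genes at base 1; the additional 5′ coding sequence of Acot2 is where the mitochondrial targeting leader is known to lie. Of all 50-base windows of the longest protein-coding transcript, 32.1% in Acot1 and 27.6% in Acot2 occurred unchanged in another Acot gene, mostly in each other. The share was 20.2% in Acot9, whose copy is Acot10, 7.69% in Acot3, 6.27% in Acot6, 4.49% in Acot4 and 0% in Acot7, Acot8, Acot12 and Acot13. How reads matching several genes were counted is not given in the sources used here, so the division of counts between Acot1 and Acot2 is uncertain. In the GENCODE M21 annotation Acot4 and Acot3 lie within or beside Gm49366 on the same strand (9667 and 6470 shared bases) and 4732463B04Rik on the other strand (9133 and 1664 bases), which have no row in the table. Acot8 shares 1052 bases with Snx21 on the other strand. How strand was treated in counting is likewise not given, so reads of such pairs may not be told apart.

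Acot1, the cytosolic enzyme for long-chain acyl-CoAs, was at 3.92, 6.63 and 5.68 CPM in DOX 1 to 3, against 56.8, 54.2 and 57.8 CPM in PBS 1 to 3. Every DOX library lay far below every PBS library, and the PBS libraries were nearly equal. The means were 5.41 ± 1.38 CPM in DOX livers and 56.3 ± 1.89 CPM in PBS livers (SD, n = 3 each), a log2 fold change of -3.38 (SE 0.17) or 9.59% of the PBS level.

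Acot2, its close copy in the mitochondrial matrix, was at 5.56, 8.40 and 6.83 CPM in DOX 1 to 3, against 26.3, 39.3 and 41.3 CPM in PBS 1 to 3. The groups did not overlap, and PBS 1 was the lowest of the PBS libraries. The log2 fold change was -2.36 (SE 0.20), which left 19.4% of the PBS level.

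Acot3, a peroxisomal long-chain enzyme, was at 15.4, 19.1 and 16.95 CPM in DOX 1 to 3, against 86.0, 105.6 and 116.7 CPM in PBS 1 to 3. The groups were again apart, with a log2 fold change of -2.58 (SE 0.14) and 16.7% of the PBS level.

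The other peroxisomal members were nearer to their PBS levels. Acot4, which in the mouse hydrolyses succinyl-CoA and other dicarboxylic acyl-CoAs, was at 24.8, 39.9 and 23.6 CPM in DOX 1 to 3, against 39.8, 54.5 and 62.4 CPM in PBS 1 to 3. DOX 2 lay just above PBS 1, so the groups overlapped narrowly. The log2 fold change was -0.83 (SE 0.23). Acot6, which acts on methyl-branched acyl-CoAs such as phytanoyl-CoA, was scarce at 1.88, 3.77 and 2.06 CPM in DOX 1 to 3, against 5.64, 3.97 and 4.36 CPM in PBS 1 to 3. DOX 2 came within 0.2 CPM of the lowest PBS library, and the log2 fold change was -0.86 (SE 0.28). Acot8, the type II peroxisomal enzyme with a broad substrate range that includes bile acid CoA esters, was at 9.13, 8.99 and 6.54 CPM in DOX 1 to 3, against 12.2, 13.4 and 12.6 CPM in PBS 1 to 3. Here the groups did not overlap, and the log2 fold change was -0.63 (SE 0.15). Snx21, the sorting nexin gene that shares bases with Acot8, rose to 10.3 ± 1.06 CPM in DOX livers, against 7.496 ± 1.02 CPM in PBS livers (SD, n = 3; log2 fold change 0.46, adjusted p = 0.0468 by edgeR).

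The remaining type II members differed little. Acot9, a mitochondrial enzyme, was at 12.7, 12.4 and 15.5 CPM in DOX 1 to 3, against 16.9, 18.8 and 15.8 CPM in PBS 1 to 3, with a log2 fold change of -0.34 (SE 0.13) and less than 0.3 CPM between DOX 3 and PBS 3. Acot12, the cytosolic acetyl-CoA hydrolase, was at 93.0, 113.4 and 110.7 CPM in DOX 1 to 3, against 106.7, 106.0 and 116.9 CPM in PBS 1 to 3 (log2 fold change -0.06, SE 0.11). Acot13, also called Them2, a mitochondria-associated enzyme for long-chain acyl-CoAs, was at 78.2, 66.1 and 54.6 CPM in DOX 1 to 3, against 65.1, 64.4 and 62.5 CPM in PBS 1 to 3 (log2 fold change 0.05, SE 0.13). Acot7, a cytosolic enzyme best known from brain, was at 19.5, 19.5 and 19.3 CPM in DOX 1 to 3, against 15.2, 16.0 and 19.6 CPM in PBS 1 to 3 (log2 fold change 0.20, SE 0.12). In Acot7, Acot12 and Acot13 the groups overlapped; the sign for Acot12 turned to 0.03 without DOX 1, and that for Acot13 ran from -0.12 to 0.17 over the alternatives.

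**Figure D1:**
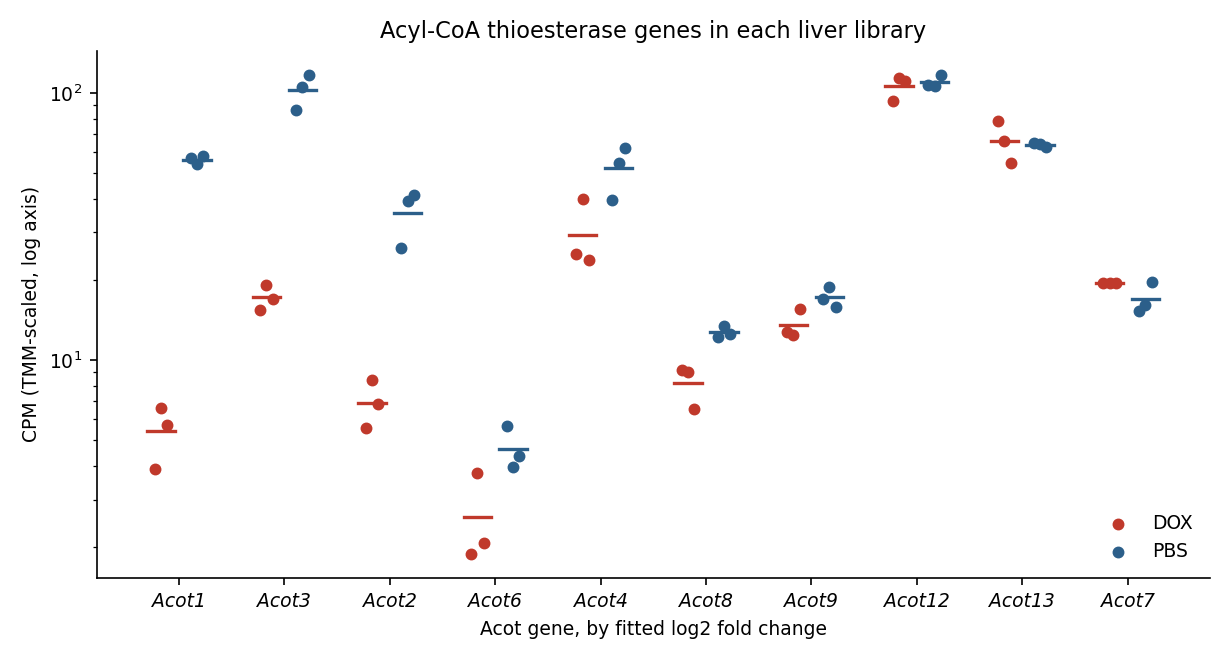
CPM of the 10 Acot genes (log axis, TMM-scaled) in DOX libraries (red, left of each pair) and PBS libraries (blue, right), ordered by fitted log2 fold change; points are libraries and bars are means. Acot1, Acot3 and Acot2 sit far apart between the groups, with Acot1 means of 5.41 CPM in DOX and 56.3 CPM in PBS livers. The groups overlap in Acot12, Acot13 and Acot7, and narrowly in Acot4.

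Counted over the members, 6 of 10 (Acot1, Acot2, Acot3, Acot4, Acot6 and Acot8) were called lower in DOX livers (edgeR, adjusted p under 0.05), 0 were called higher, and 4 did not pass. Over all 14681 genes 14.0% were lower by the same rule, 13.5% were higher and 27.5% differed in either direction; since this contrast chose the family, nothing is read from the members' share. In 6 of 10 members (Acot1, Acot2, Acot3, Acot6, Acot8 and Acot9) all DOX libraries lay below all PBS libraries, and over all genes that held for 22.3%. These are not the same 6 as those called lower, which include Acot4 and not Acot9. No member had all DOX libraries above all PBS libraries, which held for 21.8% of all genes. At least a 2-fold lower level was seen for 3 members and for 6.63% of all genes, and the same 3 were at least 4-fold lower, as were 1.46% of all genes. The median log2 fold change was -0.73 over the members and -0.01 over all genes. The members' count was 4 when DOX 1, PBS 2 or PBS 3 was left out and 5 without DOX 3 or PBS 1. It was 5 without the filter on low counts, and 7 with library size alone and with limma on log2(FPKM + 1) and log2(FPKM + 0.1).

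**Figure D2:**
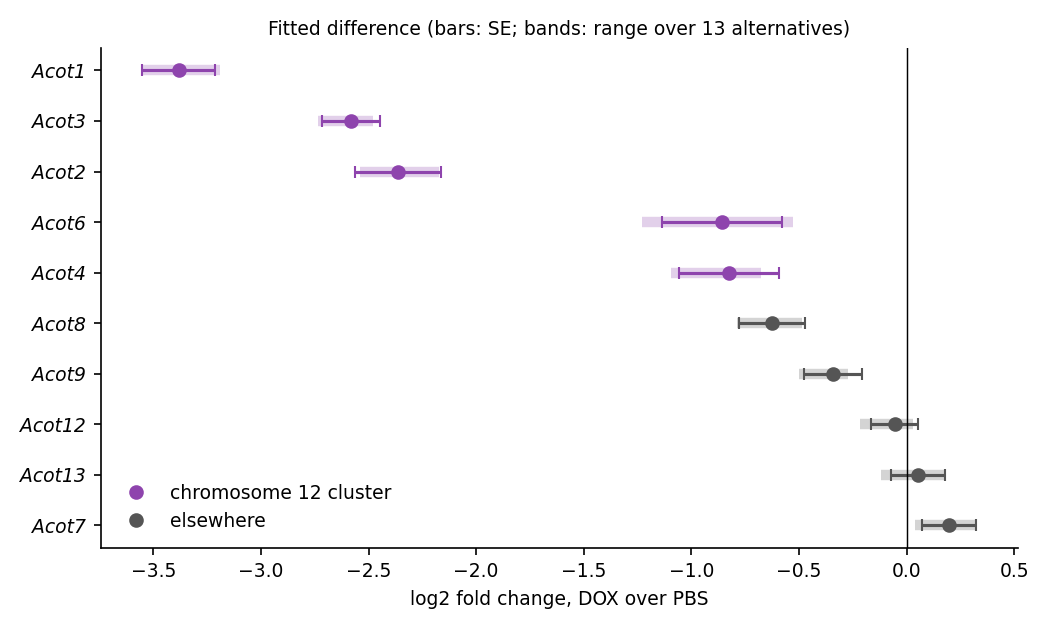
Fitted log2 fold change of DOX over PBS for each Acot gene, with its SE as error bars and, as a pale band, the range over 13 alternative settings; purple marks the chromosome 12 cluster and grey the other members. The 5 clustered genes run from -3.38 (Acot1) to -0.83 (Acot4), and the 5 others from -0.63 (Acot8) to 0.20 (Acot7).

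Levels of different genes were compared as the authors' FPKM, which divides by a fixed gene length. In DOX livers Acot13 led at 91.3 ± 14.9 FPKM (SD, n = 3), followed by Acot12 at 32.7 ± 3.66 FPKM. Acot4 (7.39 ± 2.16), Acot9 (6.95 ± 1.04), Acot3 (4.73 ± 0.494) and Acot7 (4.59 ± 0.0777 FPKM) came next; Acot4 and Acot9 were within their spread of each other, as were Acot3 and Acot7. Acot1 (3.29 ± 0.834), Acot2 (2.98 ± 0.597) and Acot8 (2.36 ± 0.375 FPKM) formed a run in which neighbours did not differ beyond their spread, and Acot6 was last at 0.739 ± 0.290 FPKM.

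In PBS livers Acot13 also led, at 98.6 ± 5.04 FPKM (SD, n = 3), and Acot6 was again last, at 1.498 ± 0.295 FPKM. Between them stood Acot1 (38.1 ± 0.785) and Acot12 (37.9 ± 0.912), level with each other, then Acot3 (31.5 ± 4.18), then Acot2 (17.1 ± 3.71) and Acot4 (14.6 ± 2.94 FPKM), which overlapped. Acot9 (9.82 ± 1.14), Acot7 (4.45 ± 0.479) and Acot8 (4.07 ± 0.273 FPKM) followed, with Acot7 and Acot8 within their spread. The position of Acot1 thus differed most: it ranked 9, 7 and 7 of the 10 members in DOX 1 to 3, against 2, 2 and 3 in PBS 1 to 3.

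Summed by the compartment of the enzyme, the peroxisomal members (Acot3, Acot4, Acot6 and Acot8) came to 13.5, 18.7 and 13.4 FPKM in DOX 1 to 3, against 43.8, 54.5 and 56.7 FPKM in PBS 1 to 3. The cytosolic members (Acot1, Acot7 and Acot12) came to 35.4, 43.1 and 43.3 FPKM in DOX 1 to 3, against 80.3, 79.2 and 81.7 FPKM in PBS 1 to 3. The mitochondrial members (Acot2, Acot9 and Acot13) came to 115.7, 99.7 and 88.3 FPKM in DOX 1 to 3, against 124.1, 131.7 and 120.6 FPKM in PBS 1 to 3. As deposited, all 3 sums were lower in every DOX library than in any PBS library. The sums do not speak for each of their genes. Acot13 was the largest part of the mitochondrial sum, with means of 91.3 FPKM in DOX and 98.6 FPKM in PBS livers. Acot2 stood at 2.98 FPKM in DOX and 17.1 FPKM in PBS livers. In the cytosolic sum Acot1 stood at 3.29 and 38.1 FPKM, and Acot12 at 32.7 and 37.9 FPKM. In the peroxisomal sum Acot3 stood at 4.73 and 31.5 FPKM. Divided by each library's TMM factor, a scaling chosen after seeing the data, the mitochondrial sums overlapped at 123.3, 106.9 and 91.0 in DOX 1 to 3, against 116.0, 121.9 and 118.3 in PBS 1 to 3. The peroxisomal and cytosolic sums stayed apart on that scaling, at 0.328 and 0.562 of their PBS means. Their shares of the family total averaged 9.68% (peroxisomes), 26.03% (cytosol) and 64.3% (mitochondria) in DOX livers, and 20.03% (peroxisomes), 31.3% (cytosol) and 48.7% (mitochondria) in PBS livers. FPKM makes no correction for library composition: the median of all genes was -0.09 on log2(FPKM + 1) and -0.15 on log2(FPKM + 0.1).

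**Figure D3:**
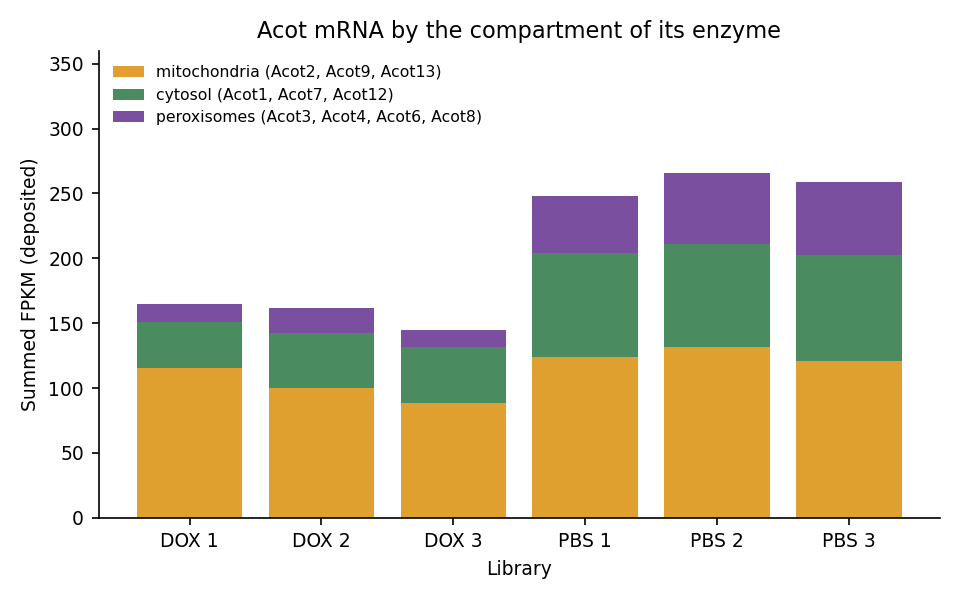
Summed deposited FPKM of the 10 Acot genes in each library (DOX left, PBS right), stacked by the compartment of the enzyme. The stacks reach 145.1 to 164.6 FPKM in DOX livers and 248.2 to 265.5 FPKM in PBS livers, and the peroxisomal part is the smallest in every library.

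Within a group, the libraries did not vary alike in all members. Among DOX livers, DOX 2 was the highest in 7 of 10 members (Acot1, Acot2, Acot3, Acot4, Acot6, Acot7 and Acot12), although it was the highest for 35.7% of all genes. Among PBS livers, PBS 3 was the highest in 6 members (Acot1, Acot2, Acot3, Acot4, Acot7 and Acot12), against 34.7% of all genes, and PBS 1 was the lowest in 5. The coefficient of variation was 40.6% in DOX livers and 18.8% in PBS livers for Acot6, and 30.7% in DOX livers and 22.02% in PBS livers for Acot4. For Acot1 it was 25.5% in DOX livers and 3.36% in PBS livers.

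The nearest profiles to that of Acot1 were sought among the 12742 other genes whose mean over the libraries reached 1 CPM, by the root mean square difference of centred log2 CPM over the 6 libraries. Cyp4a31 was the nearest (0.26), followed by Vnn1 (0.30), Gm42333 (0.35), Cyp4a10 (0.36) and Aqp7 (0.39). Gm42333 and Aqp7 were scarce, at 0.220 and 0.385 CPM in DOX livers, against 2.04 and 3.12 CPM in PBS livers. Their distances are less secure for that reason. Cyp4a31 and Cyp4a10 encode fatty acid omega-hydroxylases, Vnn1 the pantetheinase of coenzyme A breakdown and Aqp7 a glycerol channel. Acot3 and Acot2 were farther from Acot1, at 0.46 and 0.57, and Acot4, next in the cluster, was at 1.31. These distances describe 6 libraries that fall into the same pair of groups.

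The table held 3 Acot genes that are not members. Acot11, a type II enzyme named for its induction in brown fat, was at 5.50, 11.8 and 6.95 CPM in DOX 1 to 3, against 8.84, 5.73 and 6.23 CPM in PBS 1 to 3, with overlapping groups (log2 fold change 0.22, SE 0.28). Acot5, the remaining gene of the cluster, had 2, 4 and 2 counts in DOX 1 to 3, against 7, 15 and 11 counts in PBS 1 to 3, and was below the filter. Acot10, the intronless copy of Acot9, had 0 counts in every DOX library, against 0, 1 and 1 counts in PBS 1 to 3. Of the other thioesterases, Baat, a relative of the type I enzymes that conjugates bile acids to amino acids, rose to 233.6 ± 14.6 CPM in DOX livers, against 187.1 ± 8.68 CPM in PBS livers (SD, n = 3; log2 fold change 0.32, adjusted p = 0.0450 by edgeR). The call did not hold when any 1 library was left out (adjusted p = 0.0632 to 0.154 by edgeR), nor without a composition correction (0.243), and 0 of 3 tested genes of this list fell.

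Neighbouring genes were read from the same fit, in which 27.5% of all genes passed in either direction. Of 16 tested genes beside or between the clustered members, out of 22 in the table, 1 fell, 1 rose and 14 did not pass, with a median log2 fold change of -0.01. Entpd5, a nucleoside diphosphatase of the endoplasmic reticulum and the farthest of the neighbours after the cluster, fell to 345.5 ± 33.8 CPM in DOX livers, against 509.4 ± 49.9 CPM in PBS livers (SD, n = 3; log2 fold change -0.56, adjusted p = 0.00841 by edgeR). Gm31513, a predicted gene, was called higher at 0.412 CPM in DOX livers, against 0.123 CPM in PBS livers (adjusted p = 0.0446 by edgeR), a call lost under 11 of 13 alternatives (adjusted p up to 0.178). The nearest tested genes outside the cluster were Riox1 before it and Dnal1 after it, with log2 fold changes of -0.05 and -0.35, neither past the test. Inside it Gm40474 was at -0.01.

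**Figure D4:**
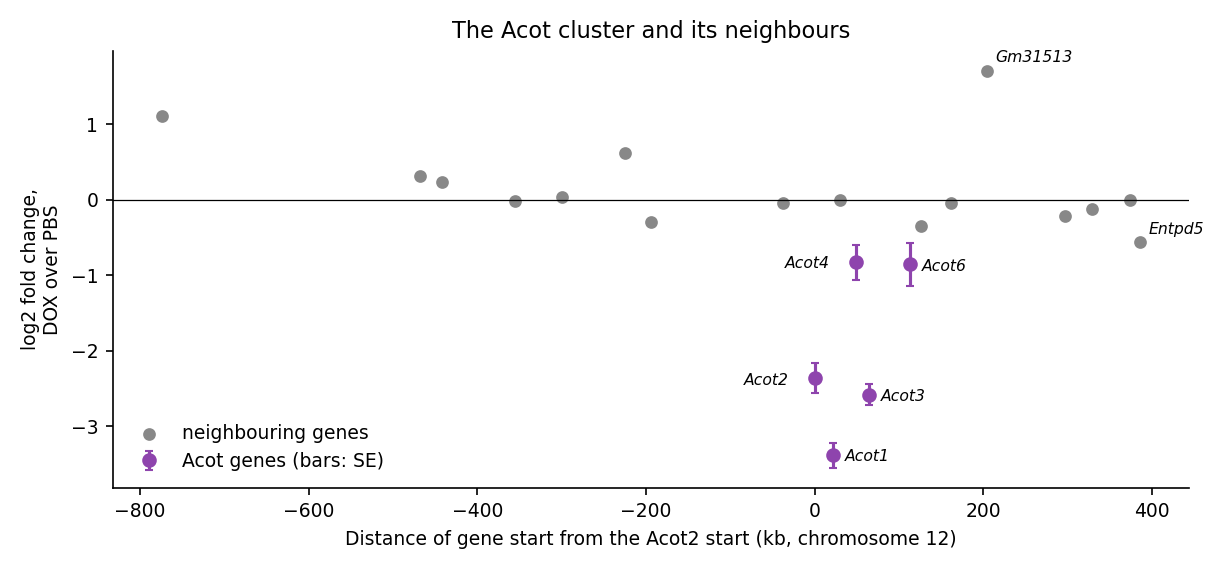
Log2 fold change of DOX over PBS against the distance of each gene's start from the start of Acot2 (kb) for the 5 clustered Acot genes (purple, bars are SE) and the 16 tested neighbours (grey). The Acot genes lie between -3.38 and -0.83, and all neighbours but Entpd5 (-0.56) and Gm31513 (1.71) did not pass the test.

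Promoters were searched for the element bound by PPAR-alpha with its partner RXR, a direct repeat of the core AGGTCA with 1 base between (DR1, AGGTCANAGGTCA), on both strands from 250 bases before to 50 bases after the first start of each gene in the RefSeq promoter table. Promoter sequences were found for 8 of the 10 members. With up to 2 mismatches DR1 was present in 2 of these, Acot4 and Acot12, and in 3.81% of 27025 promoters of all genes. With 1 mismatch only Acot12 held it (0.544% of all promoters), and with 3 mismatches Acot2, Acot3, Acot4 and Acot12 did (24.4%). An exact single core occurred in Acot3, Acot4 and Acot12 and in 16.0% of all promoters; each DR1 match of Acot4 and Acot12 contains 1 such core. The 3 members with the largest differences are shown beside the 2 with a DR1 match of up to 2 mismatches, whose repeat bases are in capitals (GRCm38.p6, RefSeq, plus strand, 100 bases each).
Acot1, chr12:84009402-84009501: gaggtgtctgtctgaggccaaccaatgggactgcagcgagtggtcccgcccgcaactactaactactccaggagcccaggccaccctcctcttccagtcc
Acot2, chr12:83987761-83987860: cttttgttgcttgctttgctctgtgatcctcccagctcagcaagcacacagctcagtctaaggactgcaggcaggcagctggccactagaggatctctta
Acot3, chr12:84052044-84052143: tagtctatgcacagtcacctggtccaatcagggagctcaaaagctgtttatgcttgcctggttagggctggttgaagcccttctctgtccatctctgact
Acot4, chr12:84038279-84038378: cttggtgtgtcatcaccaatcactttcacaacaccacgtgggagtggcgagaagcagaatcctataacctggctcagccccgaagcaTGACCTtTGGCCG
Acot12, chr13:91741381-91741480: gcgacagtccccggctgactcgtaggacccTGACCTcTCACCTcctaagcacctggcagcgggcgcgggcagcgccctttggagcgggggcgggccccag

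The match of Acot4 ended directly before the start in that table, and that of Acot12 began 110 bases before it. Log2 fold changes were -0.83 for Acot4, -0.06 for Acot12 and -3.38 for Acot1, which had no match in this window. Sequence outside the windows was not searched, and a part of DR1 in the differences was not tested. For Acot4 and Acot12 the start in that table lies inside the RefSeq gene span given above, downstream of its first base. It lies at or near the GENCODE M21 gene start, which is 84038379 for Acot4 and 91741512 for Acot12. A match describes the letters, not a bound site. TATAAA on the gene's strand was present in Acot4 and Acot9 and in 8.88% of all promoters. The Acot12 window was 68% G and C with 22 CpG pairs, against 52% and 9 in Acot1 and medians of 52.7% and 7 over all promoters.

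Genes that work beside the thioesterases were compared from lists chosen with earlier results of these data known. They were tested in the fit over all genes, in which 14.0% fell and 13.5% rose. Of 19 tested acyl-CoA synthetases, which make the substrate of the thioesterases, 8 fell, 1 (Acsl3) rose and 10 did not pass (list median -0.39, all genes -0.01). Acsf2 fell to 62.0 ± 21.0 CPM in DOX livers, against 170.8 ± 18.5 CPM in PBS livers (SD, n = 3; log2 fold change -1.46, adjusted p = 0.00220 by edgeR). Acsl5, which activates long-chain fatty acids, fell by 0.99 on the log2 scale (adjusted p = 0.00126 by edgeR), and Slc27a4 and Acsf3 fell by 0.50 and fell by 0.51. Acsf3 did not pass without DOX 3 (adjusted p = 0.0532 by edgeR) or without PBS 3 (0.0577). The number that fell was 4 without DOX 3, PBS 1 or PBS 3 and 5 without DOX 1 or PBS 2.

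Carriers bring acyl groups to the thioesterases or across membranes. Of 15 tested, 8 fell, 1 (Acbd6) rose and 6 did not pass, with a list median of -0.65. Crot, the peroxisomal carnitine octanoyltransferase that moves medium-chain acyl groups from coenzyme A to carnitine, fell to 119.0 ± 29.4 CPM in DOX livers, against 290.0 ± 31.0 CPM in PBS livers (SD, n = 3; log2 fold change -1.28, adjusted p = 0.000572 by edgeR). The mitochondrial entry genes Cpt1a, Cpt2 and Slc25a20 fell by 0.91, fell by 0.78 and fell by 0.85 on the log2 scale. Dbi, the main acyl-CoA binding protein, stood at -0.30 and did not pass.

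Of 17 tested genes listed with peroxisomal beta-oxidation, 9 fell, 3 (Hacl1, Acox2 and Nudt19) rose and 5 did not pass (list median -0.52). Acot3, Acot4, Acot6 and Acot8 work beside that pathway. The list is wider than the pathway and also holds other peroxisomal enzymes, Hacl1 and Nudt19 among them. Ehhadh, the bifunctional enzyme, fell to 202.8 ± 53.9 CPM in DOX livers, against 1460.4 ± 244.7 CPM in PBS livers (SD, n = 3; log2 fold change -2.85, adjusted p = 4.36e-05 by edgeR). Ech1, an auxiliary isomerase, fell by 0.88 on the log2 scale. Hacl1, the lyase of alpha-oxidation, rose to 324.8 ± 39.6 CPM in DOX livers, against 174.2 ± 31.3 CPM in PBS livers (SD, n = 3; log2 fold change 0.90, adjusted p = 0.00191 by edgeR).

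Ppara, which encodes PPAR-alpha, fell to 90.7 ± 29.8 CPM in DOX livers, against 194.3 ± 33.1 CPM in PBS livers (SD, n = 3). Its log2 fold change was -1.10 (adjusted p = 0.00770 by edgeR). A part of Ppara in the other differences was not tested. Of 14 receptors and partners, 2 (Ppara and Creb3l3) fell, 4 (Ppargc1b, Ncoa1, Hnf4a and Rxra) rose and 8 did not pass, with a list median of 0.18. Of 13 alternatives, including scaling, leaving out libraries and, for Rxra, the replicate block (adjusted p = 0.0666 by edgeR), the rise of Rxra (0.41) was lost under 8, that of Hnf4a (0.42) under 7 and that of Ncoa1 (0.46) under 4. The adjusted p reached 0.125 for Rxra and Hnf4a and 0.103 for Ncoa1. The number that rose was 1 without DOX 3 or PBS 2 and 2 without PBS 1 or PBS 3, while 1 instead of 2 fell when DOX 1, DOX 3, PBS 2 or PBS 3 was left out. Of 16 PPAR-alpha targets other than the Acot genes, 10 fell, 0 rose and 6 did not pass, with a list median of -1.42. Vnn1 fell by 3.06 on the log2 scale, Cyp4a31 fell by 3.07 and Cyp4a10 fell by 2.73. Pdk4, the pyruvate dehydrogenase kinase of fasting, fell by 1.35. Without DOX 1, 1 target rose.

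**Figure D5:**
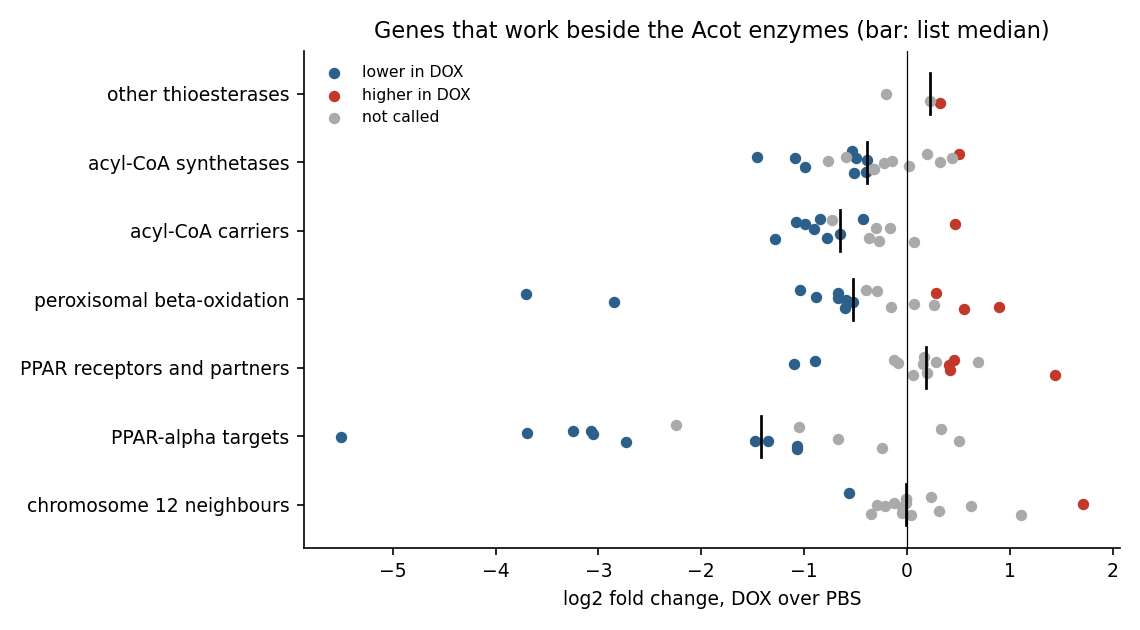
Log2 fold change of DOX over PBS for each tested gene of the 7 lists, with the list median as a black bar; blue genes fell and red genes rose at an adjusted p under 0.05 in edgeR, and grey genes did not pass. The PPAR-alpha targets reach furthest to the left with a median of -1.42, and the chromosome 12 neighbours centre on -0.01.

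Markers of the cell types a piece of liver can hold were read in the same libraries, because in bulk RNA fewer cells of a type and less RNA per cell cannot be told apart. Hepatocyte markers summed to 92447 to 118520 CPM in DOX livers and 92075 to 97860 CPM in PBS livers, with 2 of 7 genes (Serpina1a and Hnf4a) higher and 0 lower. All 5 cycling cell markers fell, with sums of 8.38 to 14.8 CPM in DOX livers and 28.5 to 41.6 CPM in PBS livers. Hepatocyte sums overlapped, whereas cycling sums did not. Alb was the largest part of the hepatocyte sum in each library, so that sum does not speak for the whole list. Alb means were 82252.5 CPM in DOX and 71321 CPM in PBS livers. Of 6 stellate cell markers 3 (Lrat, Col1a1 and Pdgfrb) fell (sums 183.1 to 281.8 CPM in DOX and 343.2 to 461.9 CPM in PBS livers), and of 6 bile duct markers 1 (Sox9) fell (523.6 to 761.6 CPM in DOX and 760.9 to 923.9 CPM in PBS livers). Of 4 tested lymphocyte markers 1 (Nkg7) fell, with sums of 1.14 to 2.14 CPM in DOX and 3.58 to 5.44 CPM in PBS livers, and Ms4a1 was at 0 in at least 1 library. Stellate and lymphocyte sums were thus lower in every DOX library. Spp1 was the largest part of the bile duct sum in each library, with means of 532.6 CPM in DOX and 716.9 CPM in PBS livers. Col1a1 was the largest part of the stellate sum in each library, with means of 87.5 CPM in DOX and 241.4 CPM in PBS livers. Des, Reln and Acta2 did not pass, with log2 fold changes of 0.05, -0.18 and 0.27, so the stellate sum does not speak for the whole list. Of 8 macrophage markers 1 (Marco) rose and 1 (Cd5l) fell, with sums of 1530 to 1650 CPM in DOX and 1636 to 1796 CPM in PBS livers. Of 4 tested neutrophil markers 1 (Retnlg) rose and 1 (Csf3r) fell, with sums of 38.8 to 86.4 CPM in DOX and 38.2 to 59.6 CPM in PBS livers. Of 6 endothelial markers 2 (Pecam1 and Lyve1) rose, with sums of 165.0 to 202.6 CPM in DOX and 146.8 to 164.3 CPM in PBS livers, so that every DOX sum was the higher, by less than 1 CPM at the nearest. Adipocyte and muscle markers were at or near 0, with sums of at most 0.0317 and 0.0529 CPM in DOX livers and at most 0.0230 and 0.138 CPM in PBS livers. The part of these cell types in the Acot differences was not tested.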

How the data were processed

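Liver messenger RNA of 3 DOX and 3 PBS samples was sequenced (Qiagen extraction, SMARTER libraries, per the labels). Deposited by the authors were raw counts per gene symbol and FPKM values with a gene length; total counts ran from 32476725 to 41921404, and mitochondrial genes took 5.11 to 6.81% of them in DOX and 3.45 to 4.58% in PBS libraries. Builds GRCm38, mm10 and hg38 are listed without a role in the submitters' processing notes, with the aligner and counter not given in the sources used here. Libraries of a group differed by more than counting noise (chi-square of 30.0 to 83.9 per degree of freedom).

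Counts were filtered with filterByExpr (minimum count 10, minimum total 15), scaled by TMM and tested with edgeR 4.0.16 in R 4.3.3 (quasi-likelihood, robust, group as the only term), with Benjamini-Hochberg adjustment over 14681 genes; DESeq2 1.42.0 and limma 3.58.1 served as alternatives. On simulated data with known changes, the share of false calls came out above the nominal level, so calls near the threshold are less secure than their adjusted p states. SEs were the log2 fold change divided by the root of F. RefSeq tables (GRCm38.p6) gave positions and promoters; GENCODE M21 transcripts gave coding sequences, aligned with Biopython 1.88 and MAFFT 7.526. The members and lists were chosen with earlier results of these data known. Named were all Acot genes, Bche, up to 4 called genes of smallest p per list (or 2 where none passed), and the 5 nearest profiles to Acot1; genes that overlap or flank members, Dbi, and the lone called genes fall outside that rule: these were picked once their values had been seen. Protein sequences were not used here; coding sequences took their place. Some genes of the lists are not reported here by name.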

Additional observations from a re-analysis of the deposited data

How the results depend on the processing

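The log2 fold changes of Acot1, Acot2, Acot3, Acot4, Acot6, Acot8 and Acot9 kept their sign under all 13 alternatives, from -3.55 to -3.19 for Acot1 and from -1.23 to -0.53 for Acot6. Scaled by library size alone the median of all genes moved to -0.16; Acot9 then stood at -0.50. Over the alternatives Acot12 ran from -0.22 to 0.03 and Acot7 from 0.04 to 0.32. By that scaling 1028 genes were higher and 3429 lower, against 917 and 3202 with limma on log2(FPKM + 1) and 948 and 3227 on log2(FPKM + 0.1), where the main counts were 1975 and 2062. In all 3 of these settings 0 synthetases, 0 carriers, 0 other thioesterases and 0 chromosome 12 neighbours rose, and 1 PPAR receptor or partner did; the neighbours that fell numbered 3, 2 and 2. Without the filter 0 other thioesterases and 0 neighbours rose, 2 neighbours fell and 1 receptor or partner fell. With DESeq2, 0 neighbours and 1 PPAR-alpha target rose. DR1 was found in 1 and 4 member promoters with up to 1 and up to 3 mismatches.

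Leaving out single libraries gave 1208 to 2440 higher and 1305 to 2348 lower genes. The ranges were 0 to 1 and 4 to 9 synthetases higher and lower, 0 to 1 carriers higher, 1 to 3 and 1 to 2 receptors and partners, 0 to 1 targets higher, 0 other thioesterases higher, and 0 to 1 and 1 to 3 neighbours. For 24 of the named genes the adjusted p was followed gene by gene over the alternatives, and 18 passed under every one. Other genes called higher or lower, such as Snx21, Acsl3 and Acbd6, are not in this count.

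Same-numbered libraries had correlations of 0.0782, -0.0652 and -0.125 in their deviations from the group means. Those of differently numbered libraries ran from -0.125 to 0.176. With 3 libraries per group this cannot settle whether the replicate numbers pair the samples. With the replicate block 1633 genes were higher and 1849 lower, 0 other thioesterases and 0 neighbours rose, and 1 target rose. The depth, the 3 libraries per group and reads shared by close copies limit what can be said of Acot6, Acot5 and Acot10, and of Acot1 apart from Acot2.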
